A study of Haplochromis burtoni and Lepidiolamprologus elongatus and Tropheus moorii with 25 samples.

Results

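The genes described here are the fatty acid and lipid metabolism genes in single-cell RNA sequencing of intestine from African cichlid fishes. They were chosen by gene symbol alone, from a list of symbol stems of the enzymes and proteins of lipid metabolism, and 58 of the 42622 features of the count matrices matched. Of the 58 genes, 48 belong to lipid metabolism. The other 10, 7 gpatch genes (G-patch domain proteins) and 3 ldlrad genes (receptor-domain proteins), matched by the first letters of their names only and are kept out of the counts given for lipid genes.

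The study dissociated intestine from 25 species of cichlids and made 1 10x Chromium library per species. The species were Bathybates ferox, Benthochromis horii, Boulengerochromis microlepis, Callochromis pleurospilus, Cyphotilapia frontosa, Cyprichromis coloratus, Eretmodus cyanostictus, Haplochromis burtoni, Haplotaxodon microlepis, Julidochromis ornatus, Lepidiolamprologus attenuatus, Lepidiolamprologus elongatus, Limnotilapia dardennii, Neolamprologus brevis, Neolamprologus brichardi, Oreochromis niloticus, Perissodus microlepis, Petrochromis orthognathus, Shuja horei, Simochromis diagramma, Telmatochromis vittatus, Trematocara zebra, Triglachromis otostigma, Tropheus moorii and Xenotilapia spiloptera. The labels used here name the tissue and the species and no treatment or control group, so cells were compared with other cells of the same libraries. Kept barcodes were split into 4 disjoint sets, each with at least 1 UMI (a tag that marks 1 captured transcript) of one of mogat2, cubn, csf1r and lck and none of the other 3.

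Fatty acids are activated by binding to coenzyme A before they can be used. They are then burned in mitochondria and peroxisomes, built into longer or less saturated chains, or joined to glycerol to make phospholipids and the triglycerides that enterocytes pack into droplets and lipoproteins. Absorptive enterocytes rebuild dietary triglyceride with mogat2, a monoacylglycerol acyltransferase, so one of the sets was itself picked by a gene of this pathway. Cubn is an uptake receptor of lysosome-rich enterocytes in zebrafish, csf1r is the growth factor receptor of macrophages and lck is a kinase of T and NK cells. The roles given for the genes are those known from mammals unless another animal is named.

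The kept barcodes numbered 98143, with 416329762 UMIs. The mogat2-positive set held 14371 barcodes in 25 libraries and the cubn-positive set 2307 barcodes in 19. There were 3972 csf1r-positive barcodes in 24 libraries and 12306 lck-positive barcodes in 25. A library entered a set with at least 20 barcodes, and the sums per library ran from 80599 UMIs in a cubn-positive set to 18375900 in a mogat2-positive one. The median barcode of a library had 6300.5 UMIs in the mogat2-positive, 3136 in the cubn-positive, 3760 in the csf1r-positive and 2189 in the lck-positive set (medians over libraries). A sort on 1 UMI favours deeper barcodes, and the part of this in the results was not tested. Levels are CPM, the UMIs of a gene per 1000000 UMIs of a set in a library. A lower level can come from fewer cells that use a gene or from less RNA of it per cell, and these cannot be told apart in summed counts.

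Each set had the highest marker sum of the cell type named above for its sorting gene, as far as the feature names could be matched. The labels themselves give no cell types. The 6 matched enterocyte markers summed to a median of 22746 CPM in mogat2-positive barcodes, against 4707 CPM in cubn-positive, 421 CPM in csf1r-positive and 532 CPM in lck-positive barcodes. The 5 matched T or NK markers had a median sum of 19.2 CPM in mogat2-positive, 50.3 CPM in cubn-positive, 533 CPM in csf1r-positive and 1548 CPM in lck-positive barcodes. The median sum of the 4 matched macrophage markers was 691 CPM, 1343 CPM, 23232 CPM and 1417 CPM in the mogat2-, cubn-, csf1r- and lck-positive sets. The 8 matched markers of lysosome-rich enterocytes had a median sum of 2566 CPM in mogat2-positive, 11957 CPM in cubn-positive, 4454 CPM in csf1r-positive and 310 CPM in lck-positive barcodes. Amn, the partner of cubn in its receptor, had a median of 186 CPM in cubn-positive barcodes and of 0 CPM in lck-positive ones. Single markers did not all follow the sums. Epcam was higher in cubn-positive than in mogat2-positive barcodes (medians 3350 and 1642 CPM), and cdh17 lower (286 and 487 CPM). Lrp2 was at 0 in 16 of the 19 cubn-positive libraries. The macrophage sum of csf1r-positive barcodes was mostly cd74 (median 22483 CPM), with medians of 208 CPM for marco, 329 CPM for spi1 and 11.6 CPM for tlr5. Of the names listed for acinar and for red cells, 0 matched a feature.

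A pair of libraries stood apart. In Haplotaxodon microlepis, 311 kept barcodes carried UMIs of more than 1 of the 4 sorting genes, against 8 to 88 in the other 24 libraries. Its enterocyte markers summed to 13442 CPM in csf1r-positive and 8647 CPM in lck-positive barcodes, the highest of all libraries in both. The mogat2-positive set of Petrochromis orthognathus had the fewest UMIs of that set (505511) and the highest goblet marker sum (4239 CPM, against a median of 147 CPM over the 25 libraries). Results are given with all libraries, and the counts were recomputed without these 2 libraries. Neither of them had a cubn-positive sum. Goblet marker sums of cubn-positive barcodes ran up to 8886 CPM (median 223 CPM over 19 libraries), in a library that was kept.

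Lipid genes took up a larger share of UMIs in mogat2-positive than in lck-positive barcodes, as a sum that was not tested. The 48 lipid genes summed to between 1670 and 4217 CPM in mogat2-positive barcodes (median 2962 CPM), and to between 497 and 1154 CPM in lck-positive barcodes (median 695 CPM). The ranges do not overlap. In cubn-positive barcodes the sum ran from 1060 to 2335 CPM (median 1775 CPM), and in csf1r-positive barcodes from 1292 to 2878 CPM (median 1948 CPM). Acsl5 alone had a mean of 1135 CPM in mogat2-positive barcodes, where the mean of the sum was 2861 CPM. Its means were 77.7 CPM in cubn-positive, 42.0 CPM in csf1r-positive and 44.0 CPM in lck-positive barcodes. The means of the sum there were 1713, 1998 and 733 CPM. A large part of the mogat2-positive sum is therefore 1 gene. The plot of levels by set shows that different genes made up these sums.

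**Figure D1:**
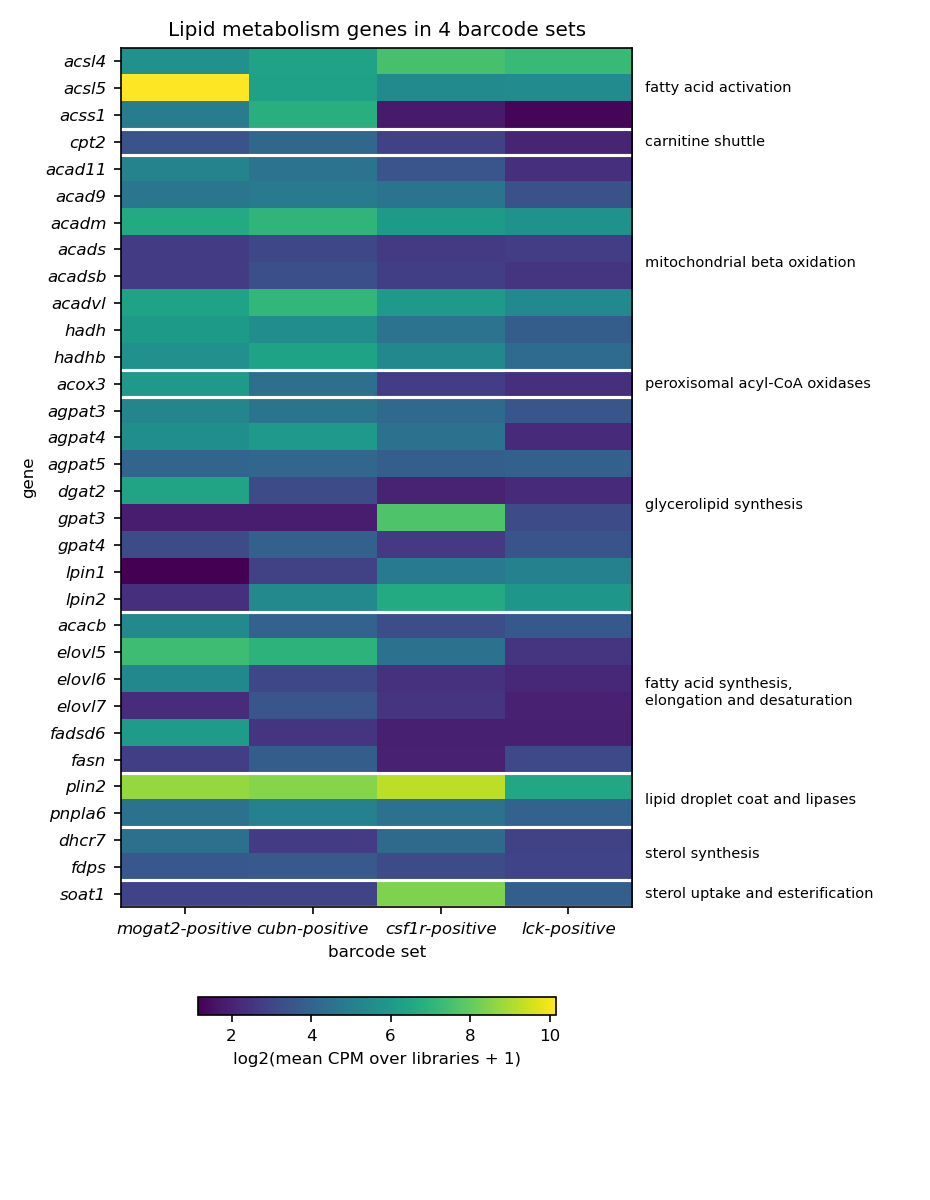
Level of 32 of the 35 tested lipid genes, as log2 of the mean CPM over libraries plus 1, in the 4 barcode sets, with genes grouped by role. Colours compare the sets within a gene, and show acsl5 brightest in mogat2-positive barcodes and gpat3 and soat1 brightest in csf1r-positive ones.

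Between sets, all features with a mean of at least 5 CPM over the sums were tested in 1 edgeR quasi-likelihood fit with the library as a block (10642 features, 41 of the 58 genes and 35 of the 48 lipid genes). A call needs a Benjamini-Hochberg adjusted p under 0.05 and at least a 2-fold difference (1 on the log2 scale). The minimum is a mean over the sums of all 4 sets, so a gene can pass it through the set where it is high. Dgat2, elovl6 and fadsd6 passed only through the mogat2-positive sums, elovl7 only through the cubn-positive and gpat3 only through the csf1r-positive sums. Their place in the counts of calls therefore depends on those sets. In mogat2-positive over lck-positive barcodes, 21 of the 35 lipid genes tested were higher, 5 were lower and 9 were not called. Of all features tested, 29.8% were called higher and 21.2% lower. The median log2 fold change was 1.72 over the lipid genes and 0.04 over all features tested. Scaled by total UMIs alone, 46.3% of all calls were higher, against 58.4% under the TMM scaling used, and the median of all features moved by -0.38. The scaling was varied over 4 fits, with TMM, median of ratios, DESeq2 and total UMIs alone. DESeq2 also scales by median of ratios, so the 4 fits are not all separate scalings. In all 4 fits, 19 of the 21 stayed called higher (all but acadm and acadvl) and 5 of the 5 lower.

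Cubn-positive over lck-positive barcodes had 14 lipid genes higher, 5 lower and 16 not called, where 26.5% of all features were higher and 24.2% lower. The medians were 0.77 for lipid genes and -0.12 for all features. Calls over all features were 52.2% higher, and 63.3% with total UMIs alone, which moved the median of all features by 0.32. All 14 higher and 3 of the 5 lower (gpat3 and lpin1 among them) were called in the 4 fits. Total UMIs alone added acadm, acsl5, dgat2 and pnpla6 to the higher ones. In csf1r-positive over lck-positive barcodes, 7 lipid genes were higher, 2 lower and 26 not called, against 20.2% and 18.1% of all features. There the medians were 0.34 and -0.09. Higher calls made up 52.8% of all calls, and 65.7% with total UMIs alone, with a shift of the median of 0.29. All 7 higher and 1 of the 2 lower (fasn) were called in the 4 fits, and total UMIs alone added acad9, cpt2 and hadhb to the higher ones. The share of lipid genes called higher (20.0%) was near that of all features. These comparisons share the lck-positive sums. Without Haplotaxodon microlepis and Petrochromis orthognathus, 21 lipid genes were called higher and 5 lower in mogat2-positive over lck-positive barcodes. The counts were 13 and 5 in the cubn-positive and 6 and 2 in the csf1r-positive set. Neither library had a cubn-positive sum, so leaving them out removed none of those sums. Over all features, 2904 of 10657 were then higher and 2768 lower in the mogat2-positive set. Higher calls made up 51.1%, 48.2% and 47.4% of all calls in the mogat2-, cubn- and csf1r-positive sets. With all libraries these shares were 58.4%, 52.2% and 52.8%.

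Mogat2-positive over cubn-positive barcodes had 13 lipid genes higher, 3 lower and 19 not called, with 10.7% of all features called higher and 6.13% lower. The medians were 0.37 and 0.17. This comparison turned on the scaling between sets. TMM scaling factors had a median of 0.722 over mogat2-positive sums and 1.22 over cubn-positive sums. Fold changes use these factors and CPM do not, so the number of libraries in which a gene was higher, counted on CPM, can differ from the sign of its fold change. With sums scaled by total UMIs alone, 7 lipid genes were higher and 6 lower, and the median of all features moved by -0.69 on the log2 scale. Calls over all features were then 17.5% higher, against 63.6% under TMM and 50.2% under median-of-ratios scaling. The 7 higher in all 4 fits that varied the scaling were acacb, acox3, acsl5, dgat2, dhcr7, elovl6 and fadsd6. The 3 lower were acss1, lpin1 and lpin2. Dgat2, elovl6 and fadsd6 passed the minimum of the test only through the mogat2-positive sums, so their calls add no support to the count. Total UMIs alone added elovl7 and gpat4, among others, to the lower ones. Without Haplotaxodon microlepis and Petrochromis orthognathus, 13 were higher and 3 lower. Neither library had a cubn-positive sum (7 and 8 barcodes), so these counts say little about their part in this comparison. Higher calls then made up 55.3% of all calls over all features. In the plot of fold changes the genes keep the order of their roles.

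**Figure D2:**
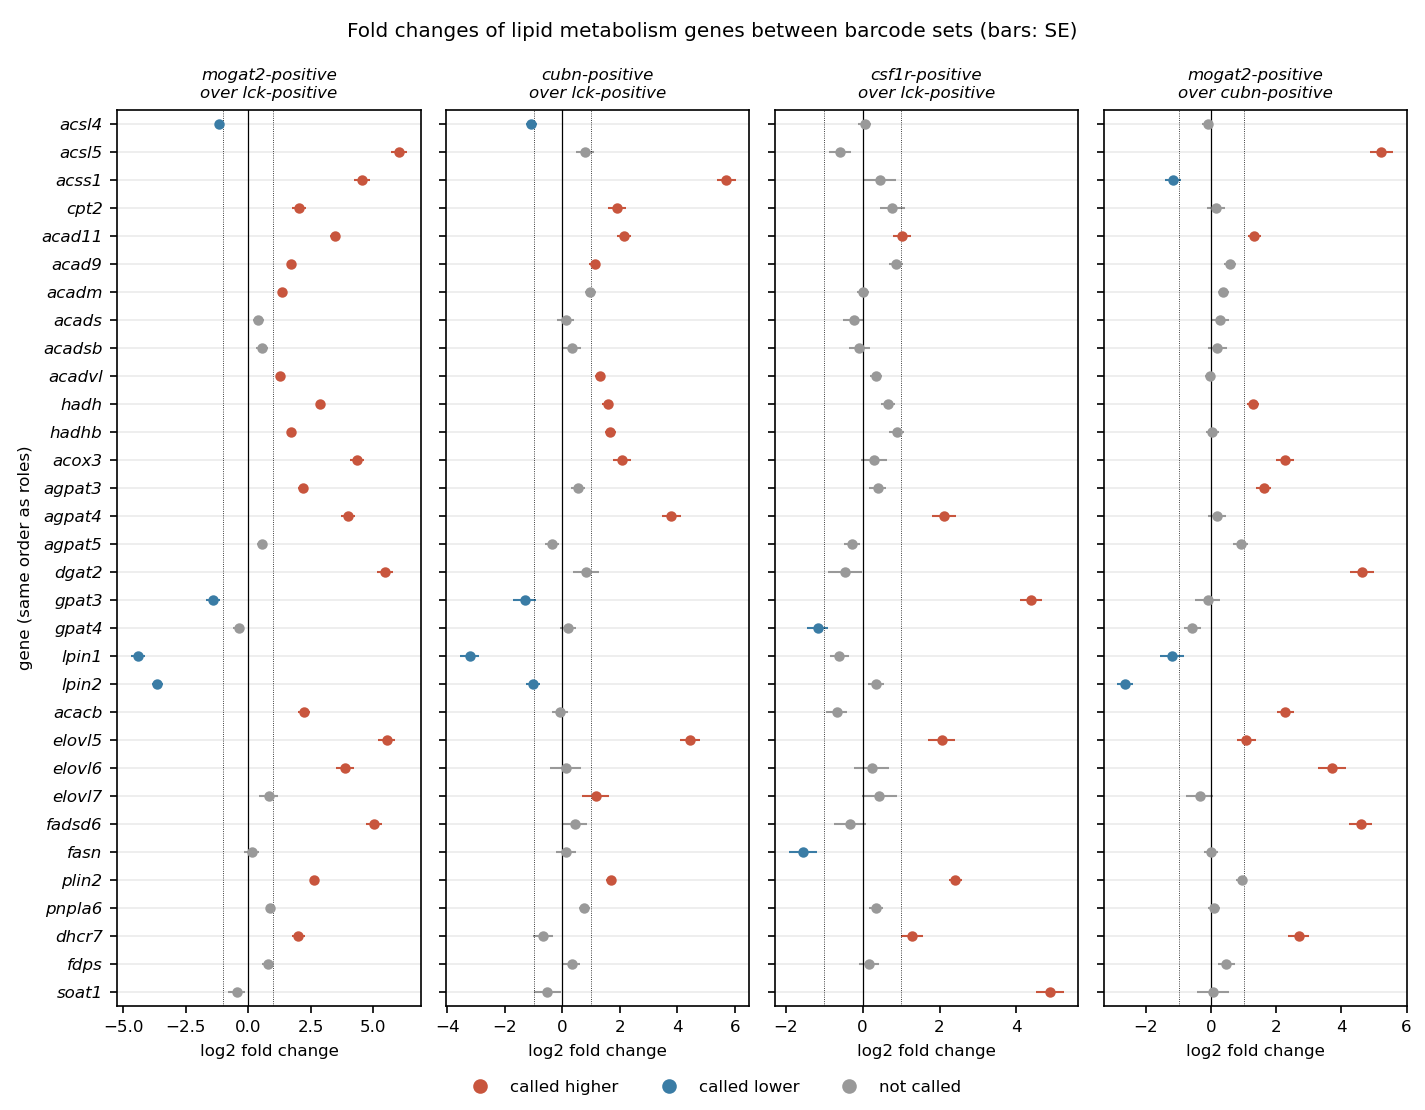
Log2 fold change (points, with SE as bars) of 32 of the 35 tested lipid genes in 4 comparisons of barcode sets, on separate linear axes. Red points were called higher, blue lower and grey not called; acsl5, elovl5 and dgat2 lie farthest right in mogat2-positive over lck-positive barcodes, and soat1 and gpat3 in csf1r-positive over lck-positive barcodes.

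Among the genes of fatty acid activation, acsl5, a long-chain acyl-CoA synthetase known from enterocytes, had between 490 and 2115 CPM in mogat2-positive barcodes (median 865 CPM). In lck-positive barcodes it had between 2.72 and 347 CPM (median 19.5 CPM). Every mogat2-positive value lay above every lck-positive one. The log2 fold change was 6.02 ± 0.32 (SE; edgeR adjusted p = 1.61e-27), and it was higher in 25 of 25 libraries. Acsl5 had a median of 35.7 CPM in cubn-positive barcodes (1.54 to 349 CPM) and of 17.0 CPM in csf1r-positive ones (0 to 472 CPM). Mogat2-positive over cubn-positive barcodes gave 5.23 ± 0.36 (adjusted p = 9.53e-21), and the ranges did not overlap. The highest csf1r-positive and lck-positive values were both in Haplotaxodon microlepis.

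The acsl5 level of lck-positive barcodes was a median of 1.70% of the mogat2-positive level of the same library. The same share was 1.98% for the enterocyte marker fabp2, 1.64% for dgat2 and 2.08% for elovl5. Over the 6 enterocyte markers it ran from 0.762% for mttp to 7.90% for epcam. The shares of fadsd6 (2.76%), acss1 (3.40%), agpat4 (6.34%), acox3 (6.85%) and elovl6 (7.55%) lay in that range too. The lck-positive levels of these 8 genes are therefore not read as expression, and the part of free RNA in them was not tested. The share was 20.1% for hadh, 24.5% for plin2 and 50.8% for acadm, above those of the 6 markers. Such shares were not computed for the cubn- and csf1r-positive sets. There fabp2 had medians of 363 and 186 CPM, against 11801 CPM in mogat2-positive barcodes. The low levels of acsl5, dgat2 and fadsd6 in those sets are therefore not read as expression either, and the part of free RNA in them was not tested.

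Acsl4, a synthetase that favours arachidonic acid, ran the other way. It had 9.29 to 148 CPM in mogat2-positive barcodes (median 50.1 CPM) and 24.1 to 485 CPM in lck-positive ones (median 132 CPM). It was lower in 24 of 25 libraries, although the ranges overlap (log2 fold change -1.18 ± 0.16, adjusted p = 8.35e-10). Cubn-positive barcodes were lower as well, with a median of 69.4 CPM (-1.07 ± 0.19, adjusted p = 4.88e-07). Csf1r-positive barcodes had a median of 159 CPM, with a log2 fold change of 0.05 over lck-positive ones and no call.

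Acss1, the mitochondrial synthetase of acetyl-CoA from acetate, was higher in both enterocyte sets than in lck-positive barcodes. It had a median of 25.0 CPM in mogat2-positive (1.26 to 82.8 CPM), 110 CPM in cubn-positive (7.35 to 202 CPM), 1.57 CPM in csf1r-positive and 1.04 CPM in lck-positive barcodes. Every cubn-positive value lay above every lck-positive one. Log2 fold changes over lck-positive barcodes were 4.54 ± 0.30 in mogat2-positive (adjusted p = 9.21e-23) and 5.71 ± 0.32 in cubn-positive barcodes (adjusted p = 6.73e-26). Mogat2-positive barcodes were lower than cubn-positive ones in 18 of 19 libraries (-1.16 ± 0.24, adjusted p = 6.88e-05). With barcodes positive for more than 1 sorting gene kept, that difference was -0.96 and was not called. Acsl3, acss2 and acss3, the other members of this role, fell under the minimum for the test.

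Cpt2, the inner-membrane carnitine palmitoyltransferase that hands long-chain fatty acids to the mitochondrial matrix, was called higher in both enterocyte sets over lck-positive barcodes. Its median was 8.96 CPM in mogat2-positive barcodes (1.02 to 34.6 CPM), 14.9 CPM in cubn-positive barcodes (0 to 35.0 CPM) and 2.76 CPM in lck-positive barcodes (0 to 10.6 CPM). The ranges overlap. The log2 fold changes were 2.04 ± 0.28 (adjusted p = 9.07e-10) and 1.89 ± 0.32 (adjusted p = 2.64e-07).

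Of the 9 genes placed in mitochondrial beta oxidation by name (acad and hadh genes), 8 were tested. The name alone does not show that each of them acts mainly on fatty acids. In mogat2-positive over lck-positive barcodes, 6 were higher (acad11, hadh, hadhb, acad9, acadm and acadvl) and 0 lower, beside 29.8% and 21.2% of all features. Acadm and acadvl did not stay called in all 4 fits that varied the scaling. In cubn-positive over lck-positive barcodes 5 were higher and 0 lower, beside 26.5% and 24.2% of all features. In csf1r-positive over lck-positive barcodes acad11 was called under TMM scaling, at 1.04 ± 0.23 (adjusted p = 8.09e-05). It missed the fold limit under 6 alternatives, at 0.76 without Haplotaxodon microlepis and Petrochromis orthognathus. Acads and acadsb, dehydrogenases of short and branched chains, were tested and called in 0 of the 4 comparisons.

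Acadm, the medium-chain acyl-CoA dehydrogenase, was called higher in mogat2-positive over lck-positive barcodes. It had 47.1 to 153 CPM in mogat2-positive (median 90.8 CPM), 38.4 to 237 CPM in cubn-positive (median 123 CPM), 23.3 to 113 CPM in csf1r-positive (median 62.2 CPM) and 13.4 to 130 CPM in lck-positive barcodes (median 43.8 CPM). All 4 ranges overlap. Its log2 fold change was 1.35 ± 0.17 in mogat2-positive over lck-positive barcodes (adjusted p = 2.76e-11; higher in 22 of 25 libraries). It was under the fold limit when scaled by total UMIs alone (0.97) and with thinned sums (0.81). In cubn-positive over lck-positive barcodes acadm was at 0.97 ± 0.18 (adjusted p = 3.02e-06), higher in 17 of 19 libraries and under the fold limit, which it passed under 7 alternatives (1.04 to 1.34). Hadh, the dehydrogenase of the third step for medium and short chains, set the sets further apart. Its values were 28.4 to 130 CPM in mogat2-positive barcodes (median 60.4 CPM) and 1.35 to 27.0 CPM in lck-positive ones (median 13.8 CPM), with no overlap. The difference was 2.88 ± 0.17 (adjusted p = 7.25e-25) and the gene was higher in 25 of 25 libraries.

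Acad11, an acyl-CoA dehydrogenase of long chains, had a median of 30.9 CPM in mogat2-positive barcodes (11.0 to 110 CPM) and of 3.74 CPM in lck-positive barcodes (0 to 15.4 CPM), at 3.48 ± 0.21 (adjusted p = 2.48e-25). Hadhb, a subunit of the trifunctional protein, had medians of 38.0, 73.6, 35.4 and 18.9 CPM in the mogat2-, cubn-, csf1r- and lck-positive sets. It was called higher in mogat2-positive (1.72 ± 0.18) and cubn-positive barcodes (1.67 ± 0.20) over lck-positive ones. Hadhb was also higher in 24 of 24 libraries in csf1r-positive barcodes, at 0.89, under the fold limit. With total UMIs alone hadhb, acad9 and cpt2 were called higher there as well.

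Acox3, the branched-chain acyl-CoA oxidase of peroxisomes, was higher in each enterocyte set than in lck-positive barcodes. It had 14.6 to 188 CPM in mogat2-positive barcodes (median 54.8 CPM) and 0 to 13.2 CPM in lck-positive ones (median 4.16 CPM), with no overlap. The log2 fold change was 4.34 ± 0.28 (adjusted p = 1.29e-23). In cubn-positive barcodes acox3 had 0 to 61.3 CPM (median 20.0 CPM) and was higher than in lck-positive ones in 16 of 19 libraries (2.08 ± 0.32, adjusted p = 2.14e-08). With thinned sums the cubn-positive value was 1.33 and was not called. Acox3 was not called in csf1r-positive over lck-positive barcodes. Acox3 was higher in mogat2-positive than in cubn-positive barcodes (2.25 ± 0.28, adjusted p = 1.71e-10).

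Single genes of glycerolipid synthesis were highest in different sets, as the plot of levels per library shows. In mogat2-positive over lck-positive barcodes 3 of the 8 were higher (dgat2, agpat4 and agpat3), 3 lower (lpin1, lpin2 and gpat3) and 2 not called (gpat4 and agpat5). Of all features 29.8% were called higher and 21.2% lower, so the split is not read as particular to this role.

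**Figure D3:**
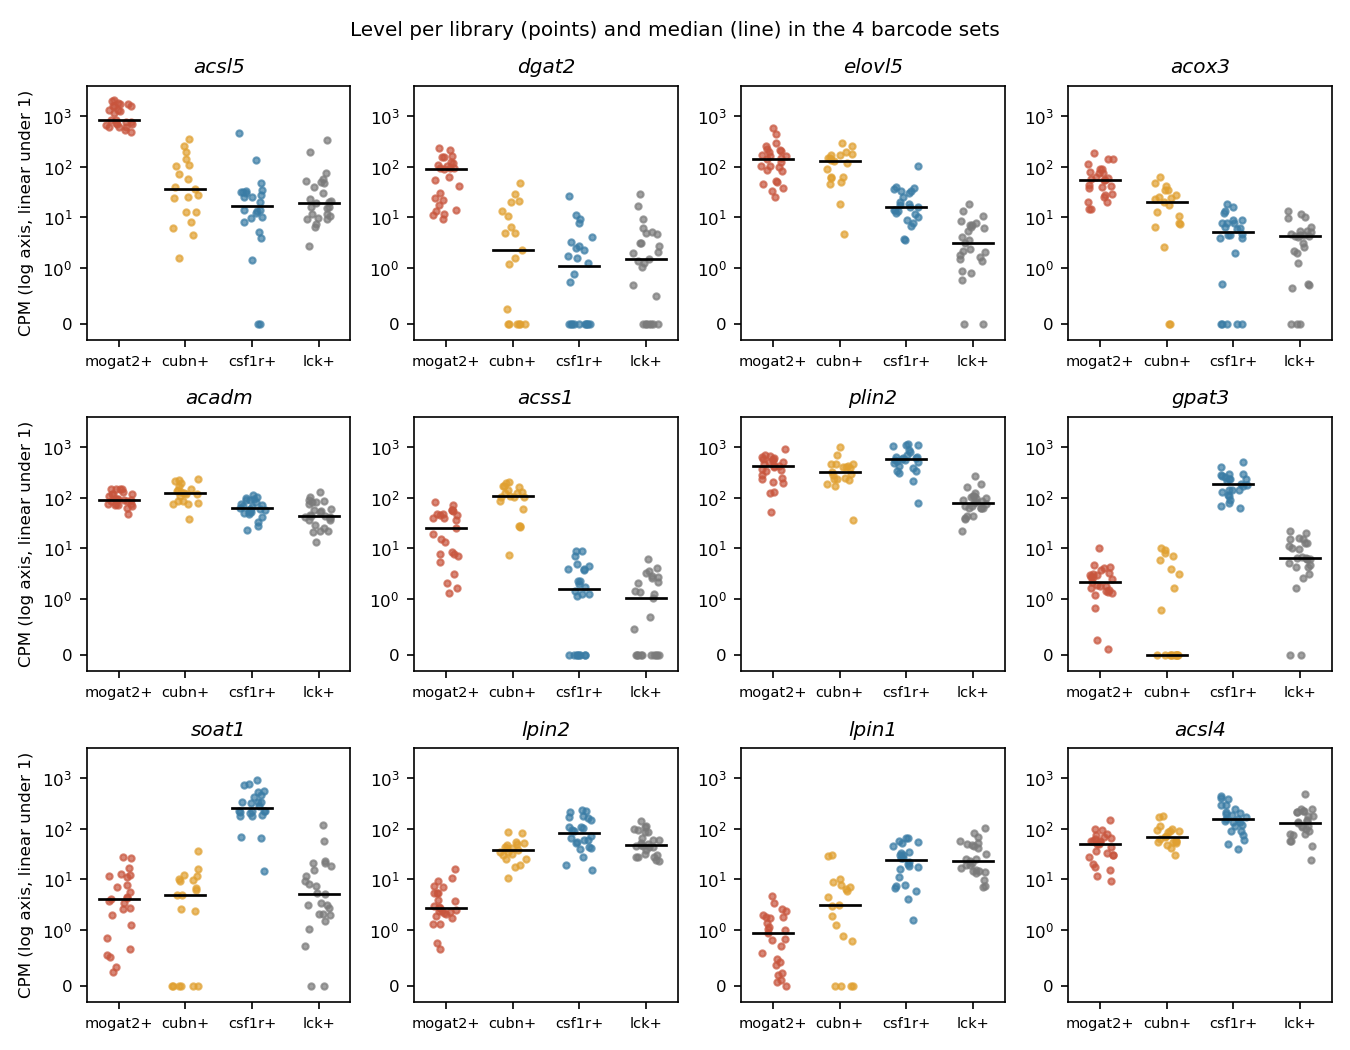
Level of 12 lipid genes in each library (points) and median over libraries (black line) in mogat2-positive (25 libraries), cubn-positive (19), csf1r-positive (24) and lck-positive (25) barcodes, in CPM on a log axis that is linear under 1. Acsl5 and dgat2 are highest in mogat2-positive barcodes, gpat3 and soat1 in csf1r-positive ones, and lpin1 and lpin2 are lowest in mogat2-positive ones.

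Dgat2, which adds the last acyl chain of triglyceride, had 9.36 to 232 CPM in mogat2-positive barcodes (median 91.8 CPM). It had 0 to 46.8 CPM in cubn-positive (median 2.27 CPM), 0 to 26.2 CPM in csf1r-positive (median 1.06 CPM) and 0 to 28.3 CPM in lck-positive barcodes (median 1.49 CPM). The ranges overlap, but mogat2-positive barcodes were higher than lck-positive ones in 25 of 25 libraries and higher than cubn-positive ones in 19 of 19. The log2 fold changes were 5.46 ± 0.33 (adjusted p = 3.72e-25) and 4.63 ± 0.37 (adjusted p = 9.68e-18). Dgat2 passed the minimum of the test only through the mogat2-positive sums, so these calls are not read as separate support. The highest dgat2 values of the csf1r- and lck-positive sets were those of Haplotaxodon microlepis.

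Agpat4, an acyltransferase that makes phosphatidic acid, was called higher in all 3 sets over lck-positive barcodes. Its medians were 38.2 CPM in mogat2-positive, 51.5 CPM in cubn-positive, 19.3 CPM in csf1r-positive and 3.0 CPM in lck-positive barcodes. The log2 fold changes were 3.98 ± 0.29, 3.79 ± 0.32 and 2.11 ± 0.31 in the mogat2-, cubn- and csf1r-positive sets (adjusted p = 8.97e-21, 1.45e-17 and 9.54e-09). It was higher in 25 of 25, 19 of 19 and 23 of 24 libraries.

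Gpat3, a glycerol-3-phosphate acyltransferase of the endoplasmic reticulum, was highest in the csf1r-positive set. It had 63.3 to 502 CPM there (median 184 CPM), against 0 to 21.7 CPM in lck-positive barcodes (median 6.29 CPM), and the ranges do not overlap. The log2 fold change was 4.38 ± 0.29 (adjusted p = 8.97e-23) and gpat3 was higher in 24 of 24 libraries. Gpat3 passed the minimum of the test only through the csf1r-positive sums, so this call is not read as separate support. In mogat2-positive barcodes its median was 2.13 CPM (0.0943 to 10.0 CPM) and in cubn-positive barcodes 0 CPM (0 to 9.92 CPM). Both were called lower than lck-positive barcodes, at -1.41 ± 0.29 (adjusted p = 1.14e-05) and -1.30 ± 0.40 (adjusted p = 0.00275). With thinned sums neither was called (-0.26 and -0.21), and the cubn-positive call was also lost with co-positive barcodes kept (-0.90). The lowest csf1r-positive value was that of Haplotaxodon microlepis.

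Lpin1 and lpin2 encode lipins, phosphatases that turn phosphatidic acid into diacylglycerol. Lpin1 had 0 to 4.71 CPM in mogat2-positive barcodes (median 0.936 CPM) and 6.87 to 101 CPM in lck-positive ones (median 22.8 CPM), with no overlap. It was lower in 25 of 25 libraries (-4.43 ± 0.27, adjusted p = 1.31e-24). Lpin2 had 0.653 to 15.8 CPM in mogat2-positive, 10.8 to 86.9 CPM in cubn-positive and 23.1 to 142 CPM in lck-positive barcodes, with medians of 2.74, 38.7 and 48.1 CPM. Mogat2-positive barcodes did not overlap with lck-positive ones (-3.64 ± 0.23, adjusted p = 3.35e-24). Over the 19 libraries shared with cubn-positive barcodes the ranges also stayed apart (-2.63 ± 0.25, adjusted p = 1.29e-14). In csf1r-positive barcodes the medians were 24.3 CPM for lpin1 and 80.6 CPM for lpin2, and neither was called over lck-positive ones. Lpin1 was also called lower in mogat2-positive than in cubn-positive barcodes (-1.20 ± 0.36, adjusted p = 0.00643), but not under 4 of the alternatives.

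In the role of fatty acid synthesis, elongation and desaturation, 6 of 7 genes were tested. In mogat2-positive over lck-positive barcodes 4 were higher (elovl5, fadsd6, elovl6 and acacb) and 0 lower, beside 29.8% and 21.2% of all features. Fadsd6 and elovl6 passed the minimum only through the mogat2-positive sums, so their calls here and below add no support to this count. Elovl5, an elongase of polyunsaturated fatty acids, had 25.3 to 590 CPM in mogat2-positive (median 146 CPM), 4.70 to 300 CPM in cubn-positive (median 128 CPM), 3.55 to 103 CPM in csf1r-positive (median 16 CPM) and 0 to 18.0 CPM in lck-positive barcodes (median 3.15 CPM). Mogat2-positive and lck-positive values do not overlap (5.53 ± 0.34, adjusted p = 1.03e-24). The log2 fold change was 4.45 ± 0.35 in cubn-positive (adjusted p = 1.07e-18) and 2.06 ± 0.34 in csf1r-positive barcodes (adjusted p = 3.04e-07). The csf1r-positive value was 0.85 with barcodes positive for more than 1 sorting gene kept and 1.28 with thinned sums, and neither was called. Between mogat2- and cubn-positive barcodes it was 1.08, higher in 11 of 19 libraries, and it missed the fold limit under 9 alternatives.

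Fadsd6, named as a front-end desaturase of polyunsaturated fatty acids, had a median of 41.9 CPM in mogat2-positive barcodes (0 to 512 CPM). Its medians were 2.39, 0.219 and 1.25 CPM in cubn-, csf1r- and lck-positive barcodes. It was higher in mogat2-positive than in lck-positive barcodes in 23 of 25 libraries (5.03 ± 0.31, adjusted p = 1.60e-23). The other 2 libraries had 0 UMIs of it in both sets. Elovl6, an elongase of saturated fatty acids, had a median of 31.3 CPM in mogat2-positive (1.74 to 131 CPM) and 2.55 CPM in lck-positive barcodes (0 to 15.7 CPM), at 3.85 ± 0.36 (adjusted p = 5.83e-16).

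Acacb, the acetyl-CoA carboxylase that makes malonyl-CoA at mitochondria, had a median of 33.8 CPM in mogat2-positive (8.14 to 105 CPM) and 10.3 CPM in lck-positive barcodes (2.0 to 25.6 CPM). It was higher in 24 of 25 libraries (2.22 ± 0.23, adjusted p = 4.80e-14). Fasn, the fatty acid synthase, was not called higher in any of the 4 comparisons. It had medians of 4.36, 6.46, 1.84 and 5.73 CPM in the mogat2-, cubn-, csf1r- and lck-positive sets and was called in 1 comparison, lower in csf1r-positive over lck-positive barcodes (-1.55 ± 0.37, adjusted p = 0.000202). With thinned sums that difference was -0.21 and was not called. The highest fasn values in the mogat2-positive (29.9 CPM), cubn-positive (91.2 CPM) and lck-positive sets (47.2 CPM) were all in Cyprichromis coloratus. The cubn- and lck-positive values rest on few UMIs, since these sums held 142495 UMIs of 40 barcodes and 317856 UMIs of 100 barcodes.

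Plin2, the coat protein of cytoplasmic lipid droplets, was higher in all 3 sets over lck-positive barcodes. It had 53.1 to 944 CPM in mogat2-positive (median 424 CPM), 36.4 to 1009 CPM in cubn-positive (median 322 CPM), 79.3 to 1186 CPM in csf1r-positive (median 584 CPM) and 21.7 to 272 CPM in lck-positive barcodes (median 80.4 CPM). The ranges overlap, yet within libraries plin2 was higher in 25 of 25, 19 of 19 and 24 of 24 pairs. The log2 fold changes were 2.63 ± 0.17, 1.69 ± 0.18 and 2.41 ± 0.17 (adjusted p = 8.58e-24, 8.77e-14 and 1.29e-21). Pnpla6, a lysophospholipase, was called in 0 of the 4 comparisons under TMM scaling, and higher in cubn-positive over lck-positive barcodes with total UMIs alone.

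Sterol synthesis could hardly be tested, since 5 of its 7 genes (fdft1, mvd, mvk and sqle among them) fell under the minimum. Dhcr7, a reductase late in cholesterol synthesis, was higher in mogat2-positive over lck-positive barcodes, with medians of 14.9 and 5.5 CPM (2.0 ± 0.25, adjusted p = 8.80e-11). It was also higher in csf1r-positive barcodes, with a median of 12.5 CPM (1.28 ± 0.28, adjusted p = 4.74e-05), but not called there with thinned sums (0.60). In cubn-positive barcodes its median was 4.62 CPM and it was not called over lck-positive ones. Fdps, which makes farnesyl diphosphate, was called in 0 comparisons.

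Soat1, which esterifies cholesterol for storage, had 14.3 to 944 CPM in csf1r-positive barcodes (median 256 CPM). In lck-positive barcodes it had 0 to 117 CPM (median 5.12 CPM), and in the mogat2- and cubn-positive sets medians of 4.01 and 4.96 CPM. It was higher in csf1r-positive than in lck-positive barcodes in 24 of 24 libraries (4.88 ± 0.37, adjusted p = 7.97e-20), although the ranges overlap.

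The 6 tested genes that matched by name only gave 0 calls higher and 2 lower (gpatch4 and ldlrad4) in each of the mogat2-, cubn- and csf1r-positive sets over lck-positive barcodes, where 21.2%, 24.2% and 18.1% of all features were called lower. In the csf1r-positive set both calls were lost with total UMIs alone (gpatch4 -0.89, ldlrad4 -0.98) and with thinned sums (-0.94 and -1.04). Ldlrad4, a membrane protein with a receptor repeat, had medians of 2.43 CPM in mogat2-positive and 17.6 CPM in lck-positive barcodes (-2.49 ± 0.19, adjusted p = 1.95e-19), with no overlap. Gpatch4 had medians of 10.6 and 29.0 CPM in the same sets (-1.02 ± 0.19, adjusted p = 3.08e-06).

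Species differed in these genes within a set. With 1 library per species there is no replicate and no test, and the fish, the library and the loss of reads against a single reference cannot be told apart from the species. Among the 12 lipid genes with a mean of at least 50 CPM in mogat2-positive barcodes, the median SD of log2(CPM + 10) over the 25 libraries was 0.77, and 0.69 over the 1656 features past the same minimum. The SD ran from 0.39 for acadm to 1.49 for fadsd6. Fadsd6, acsl4 and hadhb passed the minimum only through the library where each was highest, and without that library their means were 49.5, 47.5 and 42.3 CPM. Over the other 9 genes the median SD was 0.67 and the highest 1.20, for dgat2, so the median of 0.77 is not read as above that of all features. The SD was 0.46 for hadh and 0.67 for acsl5.

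Fadsd6 was listed at 0 in the mogat2-positive barcodes of Tropheus moorii and Telmatochromis vittatus, and also in their csf1r- and lck-positive barcodes. Its medians in the csf1r- and lck-positive sets were low in any case, as given above, so the values of 0 there add no support for an absence. In the mogat2-positive barcodes of Tropheus moorii 3 UMIs would give 0.587 CPM. Fadsd6 had 1.84 CPM in Bathybates ferox, 1.98 CPM in Petrochromis orthognathus (1 UMI), 2.04 CPM in Julidochromis ornatus (2 UMIs), 141 CPM in Trematocara zebra and 512 CPM in Oreochromis niloticus. Oreochromis niloticus stood far above the other libraries. Dgat2 (SD 1.20) was lowest in Simochromis diagramma, at 9.36 CPM (95% Poisson interval 4.49 to 17.2), and in Haplochromis burtoni, at 10.8 CPM. Its highest values were 218 CPM in Neolamprologus brevis and 232 CPM in Trematocara zebra. These intervals cover counting error alone.

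Elovl5 (SD 1.05) had 25.3 CPM in Xenotilapia spiloptera and 590 CPM in Boulengerochromis microlepis. Plin2 (SD 0.90) had 53.1 CPM in Eretmodus cyanostictus (47.2 to 59.5), under the next lowest value of 122 CPM in Simochromis diagramma. Eretmodus cyanostictus was also the lowest library for plin2 in the cubn-, csf1r- and lck-positive sets, at 36.4, 79.3 and 21.7 CPM. In the same library acsl5 and agpat4 were at their highest in mogat2-positive barcodes, at 2115 and 217 CPM. Agpat4 was lowest in Callochromis pleurospilus, at 2.0 CPM (2 UMIs).

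Acox3 (SD 0.83) was highest in Bathybates ferox at 188 CPM and lowest in Boulengerochromis microlepis at 14.6 CPM. Hadhb (SD 0.77) had 258 CPM in Benthochromis horii, where the next highest library, Boulengerochromis microlepis, had 82.8 CPM. Benthochromis horii was the highest library for 6 of the 35 tested lipid genes in mogat2-positive barcodes, and Eretmodus cyanostictus for 5. The share of all features highest in each library was not counted, so this is not read as particular to lipid genes. Acss1 was under 10 CPM in the mogat2-positive barcodes of 9 libraries, which were Cyphotilapia frontosa, Cyprichromis coloratus, Julidochromis ornatus, Lepidiolamprologus attenuatus, Lepidiolamprologus elongatus, Neolamprologus brevis, Neolamprologus brichardi, Perissodus microlepis and Telmatochromis vittatus. The map of species levels shows these genes side by side.

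**Figure D4:**
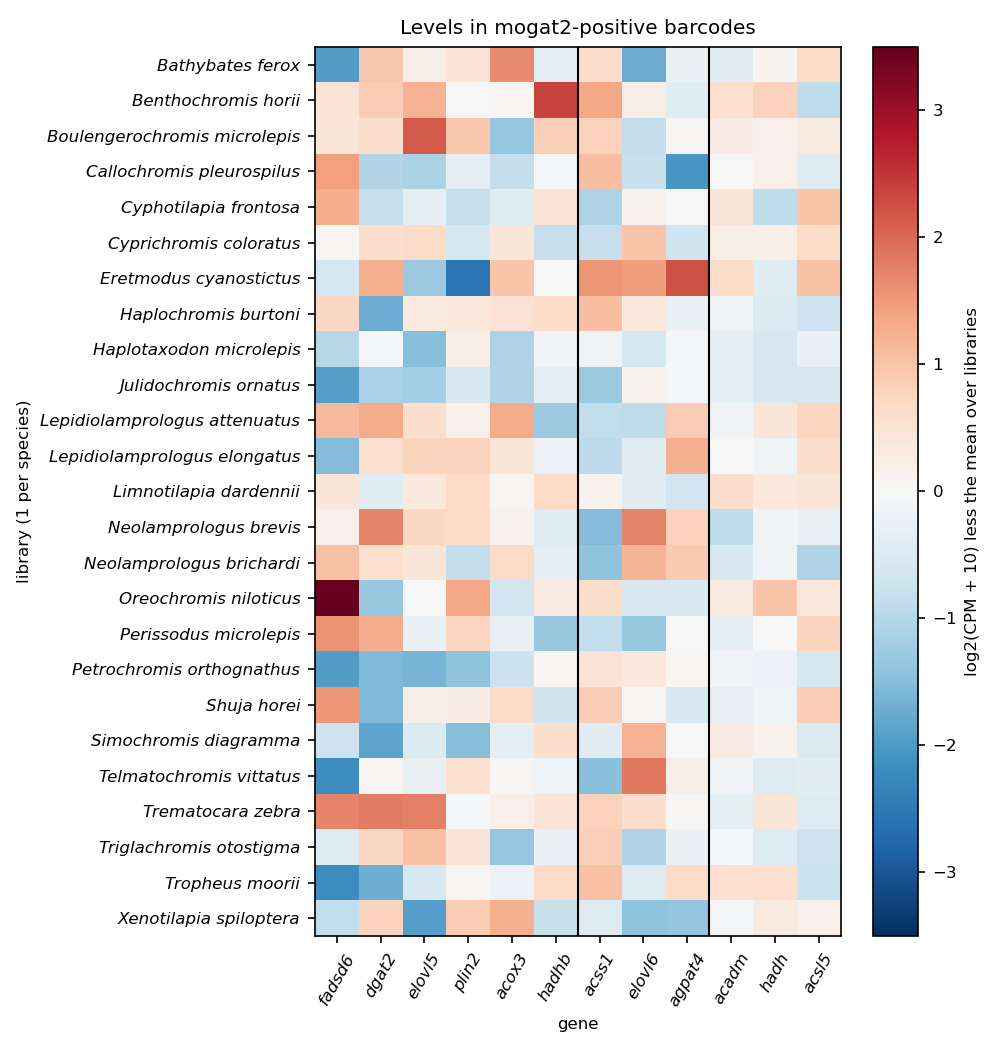
Level of 12 lipid genes in the mogat2-positive barcodes of each library (rows, 1 species each), as log2(CPM + 10) less the mean over the 25 libraries. Among genes with a mean of at least 50 CPM, the first 6 columns have the widest spread and the last 3 are among the narrowest; acss1, elovl6 and agpat4, with lower means, stand between them. In the map fadsd6 in Oreochromis niloticus and plin2 in Eretmodus cyanostictus stand out.

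Whether a species' level was shared by different cells of its library was tested for features with a mean of at least 20 CPM in both mogat2- and lck-positive barcodes (2212 features, among them 5 lipid genes). Pearson's r over the 25 libraries passed an adjusted p of 0.05 (2-sided permutation test, 100000 resamples) for 4 of the 5 lipid genes. Of all features 50.9% passed, and the median r was 0.45, so the count was not read as particular to these genes. The sets share the library, the species and the reads lost against the reference, and the part of these was not tested.

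Acsl4 had r = 0.51 (permutation adjusted p = 0.0241) and rho = 0.51 (adjusted p = 0.0316), and r was 0.57 without the 2 libraries farthest from the median. Acsl5 had r = 0.49 (adjusted p = 0.0261) and rho = 0.68 (adjusted p = 0.00291), with 0.66 without 2 libraries, but the share of its lck-positive level lay in the marker range given above. Acadvl had r = 0.49 (adjusted p = 0.0304) and rho = 0.40 (adjusted p = 0.0898), and plin2 r = 0.46 (adjusted p = 0.0438) and rho = 0.39 (adjusted p = 0.0995). Without 2 libraries r was 0.32 for acadvl and 0.30 for plin2, so these 2 rest in part on those libraries. Acadm had r = 0.02 (adjusted p = 0.943) and rho = 0.11 (adjusted p = 0.659). With co-positive barcodes kept, acsl5 did not pass (r = 0.41). With at least 2 UMIs of the sorting gene per barcode, 1 of the lipid genes passed, acadvl. Acsl4 (r = 0.41), acsl5 (r = 0.24) and plin2 (r = 0.37) did not pass under that limit. The share of all features under that limit is not given here.

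Other genes of the pathways, from lists drawn up by name, were read from the same fit. These genes, too, can pass the minimum of the test through the set where they are high, as mttp did through the mogat2-positive sums. How many did so was not counted. Fabp2, apoa4a, apoa4b and mttp of these lists are also enterocyte markers used above, so their calls are no separate result about that set. In mogat2-positive over lck-positive barcodes 29.8% of all features tested were called higher and 21.2% lower. Of fatty acid uptake and lipoprotein export, 7 of 8 tested genes were higher and 0 lower in mogat2-positive over lck-positive barcodes, with apoa4a, an apolipoprotein of lipoprotein particles, at 6.31 and the vesicle coat gene sar1b at 0.38 and not called. Of other mitochondrial oxidation genes 9 of 10 were higher, from eci2, an enoyl-CoA isomerase, at 3.39 to mlycd, malonyl-CoA decarboxylase, at 0.80 and not called. Of other peroxisomal genes 6 of 7 were higher, from phyh, phytanoyl-CoA hydroxylase, at 4.65 to acot8, a thioesterase, at 0.60 and not called. The 4 tested genes of fatty acid synthesis were all higher, from me1, the cytosolic malic enzyme that supplies NADPH, at 5.04 to hacd2, a dehydratase of elongation, at 1.77.

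The next lists were read in the same comparison, beside 29.8% of all features called higher and 21.2% lower. Glycerolipid and droplet genes had 4 of 7 higher and 1 lower, from cideb, a droplet protein of lipoprotein loading, at 6.17 to mgll, monoacylglycerol lipase, at -2.75. Sterol synthesis enzymes outside the 58 genes had 7 of 10 higher and 1 lower, from tm7sf2, a sterol reductase, at 4.10 to lbr, a nuclear envelope protein with the same activity, at -1.92. Of sterol transport genes and regulators 6 of 14 were higher and 1 lower, from npc1l1, the cholesterol importer of the brush border, at 6.26 to ppara, a receptor that switches on fatty acid oxidation, at -1.22. Pparg, the receptor of fat storage, was at 2.85, 2.51 and 3.63 in the mogat2-, cubn- and csf1r-positive sets over lck-positive barcodes, higher in each. The sterol regulators srebf1 and srebf2 were at 0.87 and -0.15 in mogat2-positive barcodes and were not called.

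In csf1r-positive over lck-positive barcodes the same lists gave 0 of 8 uptake and export genes higher and 1 lower (slc27a4, a fatty acid transporter, at -1.16), 2 of 10 mitochondrial genes higher and 0 of 7 peroxisomal genes called. Higher were also 2 of 4 synthesis genes, 2 of 7 glycerolipid and droplet genes, 0 of 10 sterol enzymes (1 lower) and 3 of 14 sterol transport genes and regulators (1 lower), where 20.2% of all features were higher and 18.1% lower. Of these 3, npc2 and npc1, which move cholesterol out of lysosomes, were higher at 4.96 and 3.58, and pparg is the other. Me1 was higher as well, at 5.18. In cubn-positive barcodes 2 of the 8 uptake and export genes were higher, with fabp1, a fatty acid binding protein, at 5.90 and mttp, the lipid transfer protein of lipoprotein assembly, at 2.0. That share is near the 26.5% of all features called higher. There, 6 of 10 mitochondrial and 6 of 7 peroxisomal genes were higher and 0 of either lower. Higher were also 2 of 4 synthesis genes, 5 of 7 glycerolipid and droplet genes, 4 of 10 sterol enzymes (1 lower) and 5 of 14 sterol transport genes and regulators (2 lower), beside 24.2% of all features lower.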

How the data were processed

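Single-cell RNA was measured in dissociated intestine, 1 library for each of 25 species. Per the labels the libraries were 10x Chromium 3' v3.1, and the authors' counting tool was Cell Ranger 5.0.0 per the file headers (5.0 per the submitters' processing notes). The deposited values are whole-number UMI counts of each feature in each barcode, not normalized, and the other deposited columns are barcodes and gene names (unit: other). The genome build and annotation are not given in the sources used here. A LOC identifier is the only name of 30456 of the 42622 features, so gene families can be incomplete. Some of the genes are included in the counts but are not reported here one by one. The 58 genes and the lists were chosen with earlier results of these data known.

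Of 115682 barcodes, the 101710 with at least 500 UMIs and 250 genes were taken. Of these, 3567 (3.51%) were removed as likely doublets, those with the most simulated doublets among their nearest neighbours. Their number was set by an assumed rate of 0.8% per 1000 barcodes. Among 300 pairs of libraries a pair shared at most 17 barcodes. UMIs were summed per set and library, and 1238 barcodes positive for more than 1 of the 4 sorting genes were left out. The sums were tested with edgeR 4.0.16 (quasi-likelihood, TMM, library as a block, mean CPM of at least 5, R 4.3.3), after a check on simulated data. SEs are the log2 fold change over the square root of F. Levels across species used log2(CPM + 10) and permutation tests (scipy 1.17.1, numpy 2.4.6). No term for the species' common ancestry was fitted. Intervals are exact Poisson 95% intervals and cover counting error only.

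Genes were named by a rule: in each comparison the 8 highest and 4 lowest calls, in each role the gene with the highest mean level, and the genes with the widest and narrowest spread. Others are named as exceptions, chosen after their values were seen. Alternatives were DESeq2 1.42.0, median-of-ratios scaling, other filters, sorts and limits, no library block, sums thinned to 20000 UMIs and libraries left out. Scaling by total UMIs alone and leaving out Haplotaxodon microlepis and Petrochromis orthognathus were added after the data had been seen.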

Additional observations from a re-analysis of the deposited data

How the results depend on the processing

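Of the counts and summary values recomputed, 102 stayed within their limits and 17 moved, and of the values for single genes reported 796 kept direction and side of the threshold, 45 lost the call, 17 gained it and 33 changed sign. The cause of each was not tested, except that sums thinned to 20000 UMIs hold fewer UMIs. Comparisons between sets were paired within libraries, with the library as the block; across species no pairing exists, since each has 1 library. Lipid genes lower in cubn-positive over lck-positive barcodes numbered 5, against 3 under median-of-ratios scaling, DESeq2, no CPM minimum, co-positive barcodes kept, barcodes over 20% mitochondrial UMIs removed or total UMIs alone, and 0 when thinned. Over all features, lower calls there went from 2573 to 2195, 2117, 3971, 2184, 2254 and 1935 in that order, and to 1172 when thinned. Features tested numbered 10526 to 10665, and 32874 with no CPM minimum. In csf1r-positive over lck-positive barcodes, 7 higher became 12 and 2 lower became 5 with no minimum fold change, and the 2 lower became 0 when thinned and 1 with total UMIs alone. With no minimum fold change 6663 of all 10642 features passed there, in either direction. Lower calls over all features went from 1921 to 925 of 10526 when thinned and to 1416 of 10642 with total UMIs alone. In mogat2-positive over cubn-positive barcodes, 13 higher became 5 when thinned and 7 with total UMIs alone, and 3 lower became 1 with co-positive barcodes kept and 6 with total UMIs alone. Over all features, 1141 higher of 10642 became 331 of 10526 when thinned and 455 of 10642 with total UMIs alone. The 652 lower became 511 of 10559 with co-positive barcodes kept and 2138 with total UMIs alone. These moves are therefore not read as particular to lipid genes. Across species, 4 lipid genes passed, and 1 (acadvl) with at least 2 UMIs of the sorting gene. The share of all features under that limit is not given here, so the drop is not read as particular to lipid genes. The median SD of 0.77 was 0.944 on log2(CPM + 1).

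None of the values that changed sign and are printed here had been called. Without a CPM minimum gpatch8 was 0.0267 in mogat2-positive over lck-positive barcodes. Thinned sums gave gpatch8 0.42 and soat1 0.10 in cubn-positive, and acsl5 0.43 in csf1r-positive over lck-positive barcodes. In csf1r-positive over lck-positive barcodes acadm was -0.0133 without a CPM minimum, -0.0440 without the block, -0.0815 with co-positive barcodes, -0.0780 at 1000 UMIs, -0.0305 with the mitochondrial limit, -0.14 without Haplotaxodon microlepis and Trematocara zebra and -0.17 without Haplotaxodon microlepis and Petrochromis orthognathus. In mogat2-positive over cubn-positive barcodes, thinned and total-UMI values were -0.46 and -0.37 for acadm, -0.44 and -0.36 for gpatch8 and -0.13 and -0.62 for soat1. Cpt2 there was -0.0165 (median of ratios), -0.00988 (DESeq2), -0.0696 (2 UMIs), -0.0330 (mitochondrial limit) and -0.57 (total UMIs), and gpat3 0.0705 (no block) and 0.16 (doublets kept). Soat1 there was -0.10 (median of ratios), -0.11 (DESeq2), -0.0686 (2 UMIs), -0.25 (co-positive), -0.0160 (1000 UMIs), -0.0768 (mitochondrial limit), -0.0430 and -0.11 (the same pairs of libraries left out). For acadm, r across species was -0.0055 without Haplotaxodon microlepis and Trematocara zebra.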

Other observations

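Sqle, the squalene epoxidase of sterol synthesis, was under the minimum of the test, yet in the mogat2-positive barcodes of Haplochromis burtoni it had 42.1 CPM. The next highest library had 7.55 CPM, and 9 of the 25 libraries had 0 UMIs of sqle. Fdps was highest in the mogat2-positive barcodes of Simochromis diagramma, at 89.0 CPM, where its median over the 25 libraries was 6.32 CPM. Simochromis diagramma was also the highest library for fdps in the cubn- and lck-positive sets, at 37.2 and 15.5 CPM. The cubn- and lck-positive values rest on few UMIs, since these sums held 80599 UMIs of 26 barcodes and 516934 UMIs of 306 barcodes. Each species has 1 library, so these values have no replicate.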
